A study of Mus musculus with 19 samples.

Results

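Interferons are cytokines that warn cells of viruses and other danger, and the genes they switch on form a large antiviral programme. Transcription of 34 such interferon-responsive genes was followed in whole perigonadal adipose tissue, the fat around the gonads, of C57BL/6 mice. The 34 genes were chosen by symbol as known targets of type I or type II interferon, by a rule that uses no measured value. Earlier results of these data were known when they were chosen. They are 34 of the 24348 genes listed for each library, and all 34 passed the filter on low counts that kept 16015 genes for testing.

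RNA sequencing libraries came from 4 groups of mice in a pair of weight gain models. HFD fed libraries (n = 4, titled ALO) came from mice sampled at peak weight on a high-fat diet labelled 60%. HFD fasted libraries (n = 4, ALOneg) came from mice sampled after 24 hours without feeding. Ensure fed libraries (n = 6, OIO) and Ensure fasted libraries (n = 5, OIOneg) came from mice sampled at the same stages in the model labelled ENSURE. The labels give strain C57BL/6 in all groups and name no allele, drug or age. Each library is named by its group and its title number. Nothing in the labels states that the libraries come from different animals; the p-values therefore cover only the spread between these samples, which may be technical.

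Type I interferons act through the receptor chains Ifnar1 and Ifnar2, and the kinases Jak1 and Tyk2 then activate STAT proteins, among them Stat2, which joins Irf9 in a complex that binds the interferon-stimulated response element (ISRE) of target promoters. Interferon gamma, the type II interferon, acts through Ifngr1 and Ifngr2 on promoters with a shorter element, the gamma-activated site (GAS); Irf1, the guanylate-binding proteins and the immunoproteasome genes lean towards this arm. In adipose tissue both adipocytes and immune cells carry the receptors.

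Counts in genes ran from 12.82 to 22.55 M per library. Levels are given as CPM, the counts of a gene scaled to a common library total, with library totals adjusted by TMM, a method that aligns libraries on their bulk of genes. They are not divided by gene length, so they are compared between libraries and never between genes. Adipocyte marker genes summed to 10300 to 27500 CPM, with no marker at 0 in any library. All HFD libraries and Ensure fed 18 were sequenced in lane 7, whereas the other Ensure libraries were in lanes 5 and 6, so that diet and lane overlap almost wholly. RNA of the neighbouring tract was present in some libraries: 11 epididymis and testis markers summed to 9860 CPM in Ensure fasted 5, 1114 CPM in Ensure fasted 2, 657 CPM in Ensure fed 10, 305 CPM in HFD fasted 24 and 189 CPM in Ensure fed 12. The remaining 14 libraries stayed at or under 79.3 CPM, and up to 4 of the 11 markers were at 0 in a library.

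Promoter windows of 26 of the 34 genes were found in the RefSeq promoter table (build GRCm38.p6, 250 bases before to 50 bases after the start of the gene). The windows were searched on both strands for the core of an ISRE, which is GAAA, any 2 bases and GAAA, and for the core of a GAS, which is TTC, any 3 bases and GAA. Matches that overlap each other were each counted, and each motif was counted without regard to the other. The ISRE core was found in 13 of 26 genes (50%) and in 3.99% of the 27025 genes of the table. The GAS core was found in 7 of 26 genes (26.9%) and in 9.55% of genes of the table. The windows of Ifit1, Ifit3, Isg15 and Oas3 are shown because these genes had some of the widest differences between groups, and that of Tap1 as a gene of the antigen presentation arm that has neither core. They are written 5′ to 3′ on the strand of the gene, with the letters that match the ISRE core on either strand in capitals. The positions are chr19:34640639-34640938 (plus strand) for Ifit1, chr19:34583279-34583578 (plus) for Ifit3, chr4:156200769-156201068 (minus) for Isg15, chr5:120777610-120777909 (minus) for Oas3 and chr17:34187306-34187605 (plus) for Tap1.
Ifit1: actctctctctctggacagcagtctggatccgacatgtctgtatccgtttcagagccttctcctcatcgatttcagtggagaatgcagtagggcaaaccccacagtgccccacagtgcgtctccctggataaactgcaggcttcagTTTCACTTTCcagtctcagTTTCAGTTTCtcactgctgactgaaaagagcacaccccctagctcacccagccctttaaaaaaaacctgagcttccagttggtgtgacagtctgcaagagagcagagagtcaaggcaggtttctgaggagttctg
Ifit3: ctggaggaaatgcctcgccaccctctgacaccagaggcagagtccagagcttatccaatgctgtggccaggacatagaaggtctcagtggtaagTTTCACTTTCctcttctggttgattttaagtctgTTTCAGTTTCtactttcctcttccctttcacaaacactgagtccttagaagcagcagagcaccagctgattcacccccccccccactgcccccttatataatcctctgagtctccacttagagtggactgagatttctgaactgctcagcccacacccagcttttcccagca
Isg15: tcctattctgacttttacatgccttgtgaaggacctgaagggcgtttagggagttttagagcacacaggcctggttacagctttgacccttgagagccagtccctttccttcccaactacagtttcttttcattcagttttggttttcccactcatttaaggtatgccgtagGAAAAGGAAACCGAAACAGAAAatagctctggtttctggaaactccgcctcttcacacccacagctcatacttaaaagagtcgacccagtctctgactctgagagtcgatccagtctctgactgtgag
Oas3: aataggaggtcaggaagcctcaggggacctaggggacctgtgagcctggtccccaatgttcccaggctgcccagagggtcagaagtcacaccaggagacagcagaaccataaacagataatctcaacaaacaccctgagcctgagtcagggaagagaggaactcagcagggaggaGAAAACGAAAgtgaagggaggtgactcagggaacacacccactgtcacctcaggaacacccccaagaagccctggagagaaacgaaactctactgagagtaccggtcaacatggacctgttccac
Tap1: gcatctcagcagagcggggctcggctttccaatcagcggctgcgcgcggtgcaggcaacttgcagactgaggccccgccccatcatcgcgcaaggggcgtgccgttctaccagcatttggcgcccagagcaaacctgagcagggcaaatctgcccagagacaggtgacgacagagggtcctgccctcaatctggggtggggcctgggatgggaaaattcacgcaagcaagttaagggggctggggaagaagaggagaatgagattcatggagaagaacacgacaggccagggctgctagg

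Ifit1 and Ifit3 each held 2 matches, both of the reverse complement of the core and with the same letters in the 2 genes, TTTCACTTTC and TTTCAGTTTC. Isg15 held 3 matches that overlap in a single run, and Oas3 held 1. The window of Tap1 overlaps that of Psmb9, which is transcribed from the opposite strand, by 275 bases, so a single stretch of DNA lies before both genes. The windows of Irf7, Oasl2, Cmpk2 and Ifi44, which also differed widely between groups, held neither of these exact cores. Among fasted mice the median log2 fold change of Ensure against HFD was 0.59 in the 13 genes with the ISRE core and 0.41 in the 13 without it, and both sets covered wide ranges, from 0.28 to 1.95 and from -0.36 to 2.09. The medians with and without the core were 0.36 and 0.18 for the diets in fed mice, 0.44 and 0.37 for Ensure fasting, -0.08 and 0.08 for HFD fasting, and 0.23 and 0.25 for the difference between the fasting responses. Dhx58, Zbp1, Oas2, Usp18, Mx1, Mx2, Rtp4 and Parp14 are not in the promoter table.

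Most of the 34 genes were low and even in HFD fat and high in some of the Ensure libraries. For each library the deviation of each gene from its mean over the 19 libraries was taken on the log2(CPM + 0.5) scale, and the median over the 34 genes was read. This median was -0.56 to -0.17 in HFD fed, -0.47 to -0.08 in HFD fasted, -0.35 to 0.75 in Ensure fed and -0.21 to 0.96 in Ensure fasted libraries. The highest values were 0.96 in Ensure fasted 8, 0.89 in Ensure fasted 17 and 0.75 in Ensure fed 9, followed by 0.42 in Ensure fasted 7 and 0.15 in Ensure fed 18. The other 14 libraries lay below 0. The genes that lean towards type II interferon, namely Irf1, Gbp2, Gbp3, Psmb8, Psmb9 and Tap1, differed from this order in part. Their median deviation was above 0 in 5 of the 8 HFD libraries, at 0.09 to 0.25. Its highest values were again in Ensure fasted 17 and 8, at 0.50 and 0.36, and Ensure fed 9 was at 0.20. Ensure fasted 17 was among the top 3 of 19 libraries for 33 of the 34 genes, Ensure fasted 8 for 30 and Ensure fed 9 for 28. Over all 16015 genes tested the median deviation stayed between -0.05 and 0.01 in every library. That closeness to 0 is largely set by TMM, which aligns libraries on their bulk of genes.

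**Figure D1:**
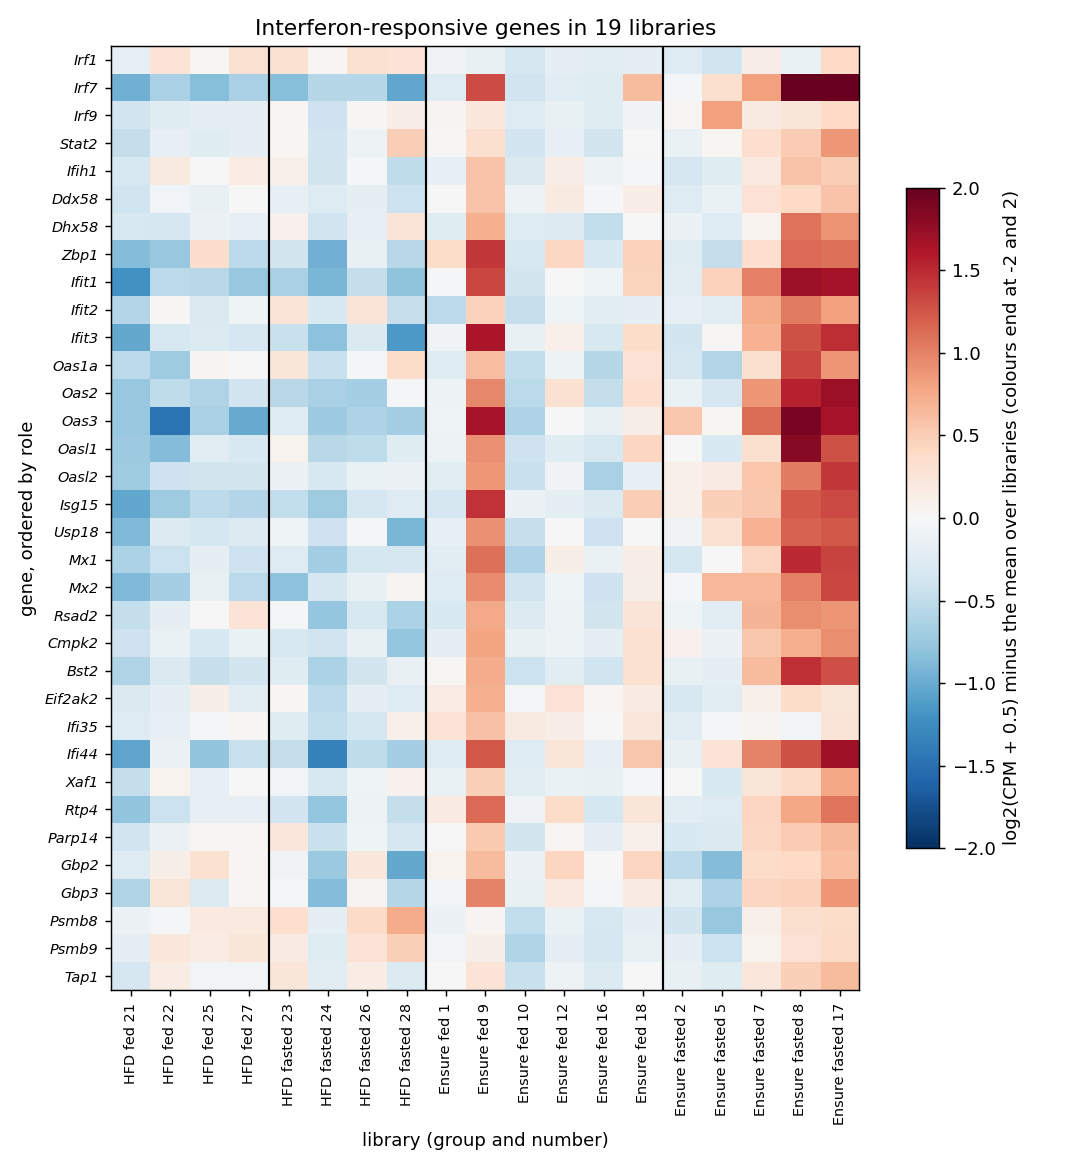
Colour shows log2(CPM + 0.5) of each of the 34 genes (rows, ordered by role) in each of the 19 libraries (columns, by group), minus the mean of the gene over libraries; colours end at -2 and 2. Ensure fed 9 and Ensure fasted 7, 8 and 17 are red for most genes, HFD libraries are mostly blue, and Irf9, Psmb8 and Psmb9 depart from this pattern.

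After fasting, 5 of the 34 genes were higher in Ensure than in HFD fat and none was lower. Among all genes tested, 1.63% were called higher and 1.19% lower in this comparison (edgeR's quasi-likelihood test, adjusted p under 0.05, which is what called means below). The 5 genes are Irf7, Ifit1, Oas3, Ifi44 and Cmpk2. The log2 fold change was above 0 in 31 of the 34 genes, beside 8374 of all 16015 genes. Its median was 0.74 against 0.02 over all genes tested, and it was above 1 in 13 genes. Irf1, Psmb8 and Psmb9 were the 3 genes with a value below 0. At an unadjusted p under 0.05 stood 20 of the 34 genes, beside 20.3% of all genes. The fasted groups did not overlap for 7 of the 34 genes, the 5 called genes with Oasl2 and Isg15, beside 3.99% of all genes. When the fasted groups were fitted alone 0 of the 34 genes were called, with adjusted p from edgeR of 0.19 to 0.283 and log2 fold changes of 0.89 to 2.07 for the 5 genes. Without HFD fasted 23, or without HFD fasted 28, 0 of the 34 genes were called; the count was 1 without Ensure fasted 17, 9 without Ensure fasted 5, 11 without Ensure fed 9 and 12 without Ensure fasted 2, and 3 without HFD fed 21 or 27, HFD fasted 24, Ensure fed 12 or 18, or Ensure fasted 7 or 8. Lane cannot be told apart from diet among fasted libraries, since none of the Ensure fasted libraries was in lane 7; with lane as a term 0 of the 34 genes and 0 of all genes were called.

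Among fed mice the direction was alike in most genes, but none of the 34 was called, beside 4.26% of all genes. The log2 fold change of Ensure against HFD was above 0 in 30 of the 34 genes, beside 7098 of all 16015 genes. Its median was 0.37 against -0.04 over all genes. At an unadjusted p under 0.05 were 12 of the 34 genes, beside 18.6% of all genes. DESeq2 called 4 of the 34, beside 9.68% of all genes, and limma voom with sample weights 8, beside 34% of all genes. The edgeR count was 2 without HFD fasted 28 or Ensure fasted 5, and 1 without Ensure fed 16 or Ensure fasted 2. The fed groups did not overlap for 4 of the 34 genes, Irf7, Ifit1, Oas3 and Isg15, beside 13.3% of all genes. In lane 7, which held 4 HFD fed libraries and Ensure fed 18, the Ensure library was above the HFD mean in 30 of the 34 genes, by a median of 0.37 on the log2(CPM + 0.5) scale; with 1 library this is a value with no test. The fed and the fasted comparison use separate libraries, but each shares its libraries with the comparisons of fasted against fed fat.

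On fasting in Ensure fat 2 of the 34 genes rose, Irf9 and Oasl2, beside 10.6% of all genes called higher. None of the 34 was called lower, beside 9.77% of all genes. The share of 2 in 34 is below the background of this comparison, which changed much of the transcriptome. The log2 fold change was above 0 in 31 of the 34 genes, beside 9694 of all 16015 genes. Its median was 0.44 against 0.11 over all genes, and the 3 genes with a value below 0 were Eif2ak2, Ifi35 and Gbp2. At an unadjusted p under 0.05 stood 11 of the 34 genes and 36% of all genes. The fed and fasted Ensure groups overlapped for all 34 genes, whereas they did not for 15% of all genes. In lane 5 (4 fasted libraries and 1 fed) the fasted mean was above the fed value in 27 of the 34 genes, with a median difference of 0.43, and in lane 6 (1 fasted library and 4 fed) in 33 of 34, with a median of 0.89. Each rests on 1 library of a group, Ensure fed 1 in lane 5 and Ensure fasted 17 in lane 6, so these are values with no test. Ensure fasted 17 was among the top 3 of 19 libraries for 33 of the 34 genes. With lane as a term none of the 34 was called. The count was 10 without Ensure fed 9, 8 without Ensure fasted 2, 5 without Ensure fasted 5 and 4 without HFD fasted 28. It was 0 without HFD fed 21 or 27, HFD fasted 23 or 26, or Ensure fed 10, 12, 16 or 18, and 1 without HFD fed 22 or 25, Ensure fed 1, or Ensure fasted 8 or 17.

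In HFD fat 24 hours without food left the 34 genes without any call, beside 1.22% of all genes. None had an unadjusted p under 0.05, beside 14.8% of all genes, and neither DESeq2 nor limma voom called any. The log2 fold changes ran from -0.39 for Gbp2 to 0.48 for Oas3, with 21 genes above 0 and 13 below. Of all 16015 genes, 9295 were above 0. The median of 0.05 was close to the 0.06 of all genes. The HFD groups did not overlap for 1 of the 34 genes, Oasl2, beside 8.45% of all genes.

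The difference between the fasting responses, Ensure minus HFD, was called in 0 of the 34 genes, and in 0% of all genes. Its value was above 0 in 31 of the 34 genes and in 8733 of all 16015 genes, with a median of 0.27 against 0.04 over all genes. Rsad2 was the only gene of the 34 with an unadjusted p under 0.05, beside 7.71% of all genes, and DESeq2 called 0 and limma voom 1 of the 34. That fasting acted differently on these genes in the 2 models was therefore not shown. The interval for Irf7, for example, ran from -0.23 to 2.26 on the log2 scale around 1.02.

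**Figure D2:**
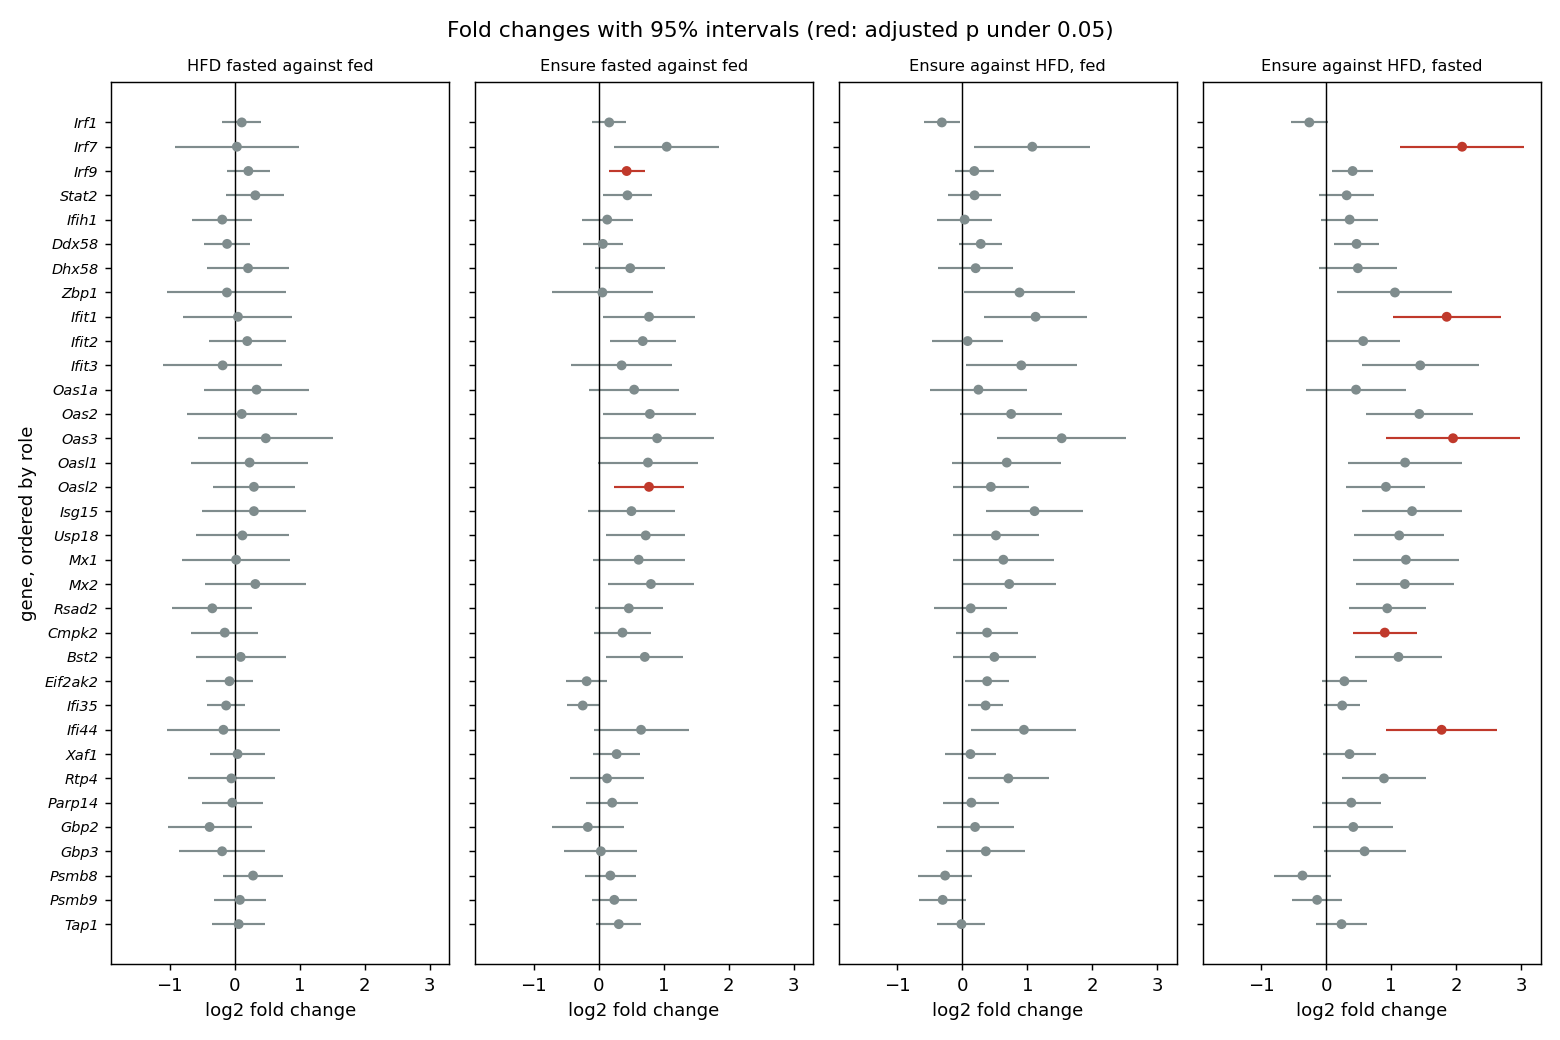
Points are log2 fold changes of the 34 genes (rows, ordered by role) in 4 comparisons, with 95% intervals from the edgeR fit; red marks an adjusted p under 0.05. Points scatter around 0 for HFD fasting, and most lie to the right of 0 in the other panels, with 2 red points for Ensure fasting and 5 for Ensure against HFD among fasted mice.

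Among the transcription factors, Irf7, the factor that amplifies type I interferon production, had the widest spread between groups. Irf7 stood at 19.4, 24.0, 20.8 and 24.0 CPM in HFD fed and at 20.9, 25.5, 25.5 and 18.2 CPM in HFD fasted libraries 23, 24, 26 and 28. It was at 28.6 to 94.8 CPM (median 32.2) in Ensure fed libraries, and at 37.2, 47.7, 67.6, 177 and 151 CPM in Ensure fasted libraries 2, 5, 7, 8 and 17. Every Ensure library was thus above every HFD library, and their lanes differed too, but for Ensure fed 18. The share of all genes with this full separation was not counted. In level of Irf7, Ensure fed 9 and Ensure fasted 8 and 17 stood far above the rest. Among fasted mice the log2 fold change of Ensure against HFD was 2.09 ± 0.45 (SE; 4.27-fold; edgeR, adjusted p = 0.0215); the call was lost without HFD fasted 23, HFD fasted 28 or Ensure fasted 17. Among fed mice it was 1.08 ± 0.42 (adjusted p = 0.171), and for Ensure fasting 1.05 ± 0.38 (adjusted p = 0.06).

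Irf9, the DNA-binding part of the ISRE complex, rose on fasting in Ensure fat with a log2 fold change of 0.43 ± 0.13 (edgeR, adjusted p = 0.0298). Its level was 32.2, 35.7, 37.1 and 37.3 CPM in HFD fed and 43.5, 31.8, 42.9 and 46.2 CPM in HFD fasted libraries. In Ensure fed libraries it was 35.1 to 48.9 CPM (median 39.3), and in Ensure fasted libraries 2, 5, 7, 8 and 17 it was 43.3, 75.5, 48.1, 50.1 and 55.7 CPM. The Ensure groups overlapped, and the highest value belonged to Ensure fasted 5, the library with the most tract RNA. Without that library the log2 fold change was 0.24 and the call was lost, as it was without HFD fed 21 or 27, HFD fasted 23 or 26, or Ensure fed 10, 12, 16 or 18.

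Stat2, the partner of Irf9 in that complex, had the smallest p of the 34 genes for HFD fasting, with a log2 fold change of 0.32 ± 0.21 (edgeR, adjusted p = 0.499). It was at 44.3, 55.5, 52.1 and 54.1 CPM in HFD fed, 63.8, 47.5, 57.6 and 87.7 CPM in HFD fasted, 47.4 to 77.1 CPM (median 58.3) in Ensure fed and 56.3, 63.4, 78.2, 88.0 and 113 CPM in Ensure fasted libraries. The groups overlapped in each comparison. Irf1, a factor induced by interferon gamma, went the other way between diets, at 72.5 ± 10.8 CPM (SD, n = 4) in HFD fed and 58.3 ± 3.54 CPM (n = 6) in Ensure fed fat, a log2 fold change of -0.31 ± 0.13 that was not called (adjusted p = 0.196).

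The cytosolic sensors of foreign nucleic acid are Ifih1 and Ddx58, which detect viral RNA, Dhx58, which modulates them, and Zbp1, which binds left-handed nucleic acid. None was called in any comparison. Among fasted mice their log2 fold changes of Ensure against HFD ran from 0.36 for Ifih1 to 1.06 for Zbp1, and among fed mice from 0.04 for Ifih1 to 0.88 for Zbp1. In HFD fasting 3 of the 4 were below 0.

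The IFIT proteins bind viral RNA and block its translation. Ifit1 was at 5.64, 9.25, 9.14 and 7.90 CPM in HFD fed, 8.57, 7.04, 9.74 and 7.61 CPM in HFD fasted, 10.5 to 35.2 CPM (median 13.6) in Ensure fed and 11.6, 19, 28.2, 46.0 and 44.4 CPM in Ensure fasted libraries 2, 5, 7, 8 and 17. All Ensure libraries were above all HFD libraries, and the lowest of them, Ensure fed 10 and Ensure fasted 2, were close to the HFD range. Its log2 fold change was 1.86 ± 0.39 among fasted mice (3.62-fold; edgeR, adjusted p = 0.0196), a call lost without HFD fasted 23 or 28, and 1.13 ± 0.37 among fed mice (adjusted p = 0.1). Ifit3 had 1.45 ± 0.43 (adjusted p = 0.0735) and Ifit2 0.57 ± 0.27 (adjusted p = 0.243) among fasted mice. Ifit3 has a near-identical copy in the genome, and reads that matched more than 1 place were not counted to genes, so its level is uncertain. Ifit2 had 0.68 ± 0.24 for Ensure fasting (adjusted p = 0.0536).

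Several OAS enzymes make a second messenger that activates an RNA-degrading enzyme when they bind double-stranded RNA. The 5 genes of the family among the 34, which include the OAS-like Oasl1 and Oasl2, had log2 fold changes above 0 in each of the 5 comparisons. Oas3 was at 2.03, 1.05, 2.23 and 1.63 CPM in HFD fed, 3.09, 2.09, 2.31 and 2.19 CPM in HFD fasted, 2.31 to 13 CPM (median 3.66) in Ensure fed and 5.74, 3.90, 8.79, 15.5 and 13 CPM in Ensure fasted libraries. The diets did not overlap among fed or among fasted libraries, and Ensure fed 9 was far above the other fed libraries. Oas3 had a log2 fold change of 1.95 ± 0.49 among fasted mice (3.87-fold; edgeR, adjusted p = 0.0389) and 1.53 ± 0.47 among fed mice (adjusted p = 0.0748). The call among fasted mice was lost in 11 of 19 fits that left out 1 library, namely HFD fed 21 or 27, each of the 4 HFD fasted libraries, Ensure fed 12 or 18, and Ensure fasted 7, 8 or 17.

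Oasl2, an OAS-like protein, rose on fasting in Ensure fat with a log2 fold change of 0.78 ± 0.25 (edgeR, adjusted p = 0.0404). It was at 21.1, 26.0, 26.8 and 26.9 CPM in HFD fed, 32.0, 27.9, 31.6 and 31.9 CPM in HFD fasted, 22.1 to 63.7 CPM (median 30.3) in Ensure fed and 37.2, 39.0, 51.4, 71.1 and 93.6 CPM in Ensure fasted libraries. Among Ensure fed libraries only number 9 reached the fasted range. The call was lost in 13 of 19 fits that left out 1 library, namely any HFD fed library, HFD fasted 23 or 26, Ensure fed 1, 10, 12, 16 or 18, and Ensure fasted 8 or 17. In HFD fat all fasted libraries were above all fed ones for Oasl2, with a log2 fold change of 0.29 ± 0.30 that was not called (adjusted p = 0.67). Oas1a, Oas2 and Oasl1 had log2 fold changes of 0.46, 1.43 and 1.22 among fasted mice, none of them called. The Oas1 genes are close copies, so their counts are uncertain too.

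Isg15 is a ubiquitin-like protein that is attached to other proteins, and Usp18 removes it and restrains the type I receptor. Isg15 was at 3.31, 4.26, 4.92 and 4.70 CPM in HFD fed, 5.07, 4.26, 5.72 and 6.03 CPM in HFD fasted, 5.69 to 20.7 CPM (median 6.50) in Ensure fed and 7.91, 10.3, 10.9, 17.8 and 19 CPM in Ensure fasted libraries. The diets did not overlap among fed or fasted libraries, but neither comparison was called: the log2 fold changes were 1.11 ± 0.35 (edgeR, adjusted p = 0.085) and 1.32 ± 0.37 (adjusted p = 0.06). Usp18 had 1.13 ± 0.33 among fasted mice (adjusted p = 0.0702).

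Of the other antiviral effectors, Cmpk2, a mitochondrial nucleotide kinase, was called among fasted mice, with a log2 fold change of 0.90 ± 0.23 (edgeR, adjusted p = 0.046). It was at 14.5, 17.7, 15.6 and 17.7 CPM in HFD fed, 15.4, 14.7, 17.5 and 11.2 CPM in HFD fasted, 16.9 to 34 CPM (median 17.9) in Ensure fed and 20.8, 17.9, 28.7, 32.7 and 37.6 CPM in Ensure fasted libraries. The fasted groups did not overlap, though Ensure fasted 5 at 17.9 CPM and HFD fasted 26 at 17.5 CPM nearly met. The call was the least stable of the 5, lost in 15 of 19 fits without 1 library; it was kept without HFD fasted 26, Ensure fed 9, Ensure fasted 2 and Ensure fasted 5.

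Rsad2, which makes a chain-ending nucleotide and is the genomic neighbour of Cmpk2, had the smallest p of the 34 genes for the difference between the fasting responses, 0.81 ± 0.38 (edgeR, adjusted p = 0.647). It was at 23.0, 28.0, 32.0 and 38.9 CPM in HFD fed, 31.2, 18.6, 25.6 and 20.5 CPM in HFD fasted, 24.7 to 54.5 CPM (median 28.2) in Ensure fed and 30.2, 27.6, 51.4, 61.3 and 59.6 CPM in Ensure fasted libraries. Fed and fasted libraries overlapped in both diets. Mx1 and Mx2, GTPases that trap viral particles, had log2 fold changes of 1.23 and 1.21 among fasted mice, and Bst2, which tethers budding virus to the cell, 1.11, none of them called. Eif2ak2, the kinase that stops translation when it meets double-stranded RNA, had 0.28.

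Ifi44, an interferon-induced protein of less settled function, was at 3.85, 7.88, 4.77 and 6.18 CPM in HFD fed, 6.04, 3.04, 5.85 and 5.15 CPM in HFD fasted, 7.08 to 21.0 CPM (median 8.91) in Ensure fed and 7.70, 10.4, 17.5, 21.5 and 29.0 CPM in Ensure fasted libraries. The fasted groups did not overlap, and HFD fed 22 reached into the Ensure fed range. The log2 fold change among fasted mice was 1.78 ± 0.41 (3.43-fold; edgeR, adjusted p = 0.0269), a call lost without HFD fasted 23, HFD fasted 28 or Ensure fasted 17. Ifi35, Xaf1, Rtp4 and Parp14 had 0.25, 0.36, 0.89 and 0.39 in that comparison and were not called.

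None of the guanylate-binding proteins and the genes of peptide display was called in any comparison, and Psmb8 and Psmb9 had log2 fold changes below 0 between the diets in both fed and fasted mice. Gbp2, a GTPase that attacks vacuoles holding pathogens, was at 71.6, 93.0, 106 and 87.7 CPM in HFD fed, 81.3, 51.1, 99.5 and 41.8 CPM in HFD fasted, 78.5 to 132 CPM (median 102) in Ensure fed and 59.1, 46.4, 110, 113 and 129 CPM in Ensure fasted libraries. Its groups overlapped in every comparison, and its log2 fold change among fasted mice was 0.42 ± 0.29 (edgeR, adjusted p = 0.452). Psmb8, a catalytic subunit of the proteasome that trims peptides for display to T cells, was at 42.9, 46.0, 53.5 and 53.5 CPM in HFD fed, 58.6, 40.6, 60.6 and 78.1 CPM in HFD fasted, 32.9 to 48.3 CPM (median 41.6) in Ensure fed and 35.8, 27.4, 49.99, 58.0 and 60.1 CPM in Ensure fasted libraries. The highest value belonged to HFD fasted 28, the library with the lowest Irf7. HFD fasted 28 also had the highest sum of lipid-associated macrophage markers without Lpl, 7056 CPM, Cd68 at 1426 CPM, the largest share of reads that were not unique, 27.7%, and the lowest weight in limma voom, 0.0907; their part in its values was not tested. Among fasted mice Psmb8, Psmb9, another such subunit, and Tap1, which carries peptides into the endoplasmic reticulum, had log2 fold changes of -0.36 ± 0.21, -0.14 ± 0.18 and 0.24 ± 0.18, none of them called. Whether their difference between diets differs from that of the other genes was not tested.

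**Figure D3:**
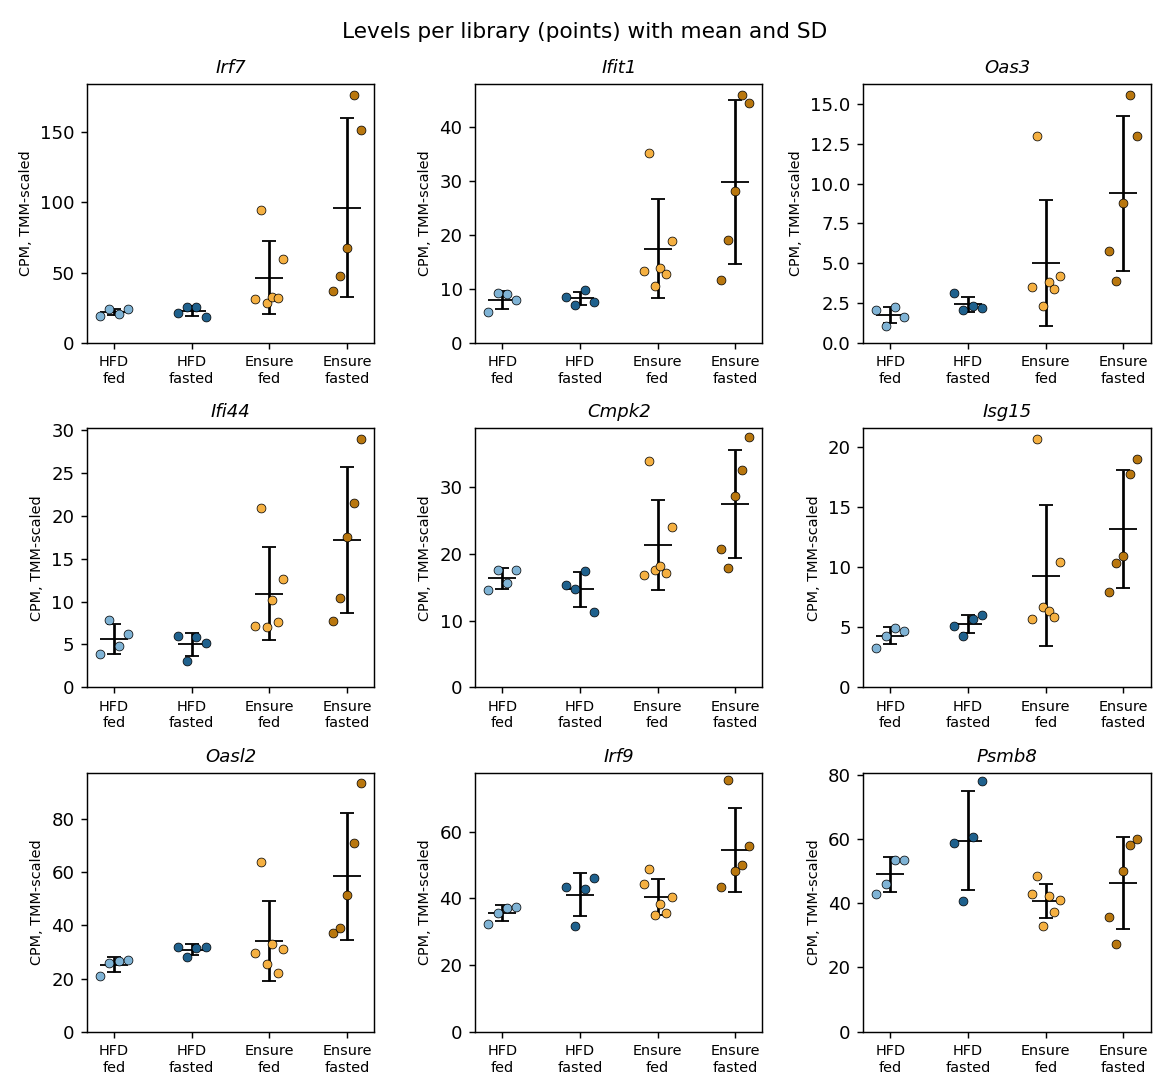
Points are CPM (linear axes that start at 0) of 9 genes in each library, by group, with the mean and SD as bars; there are 8 HFD and 11 Ensure libraries. For Irf7 and Ifit1 every Ensure point is above every HFD point, whereas the diets overlap for Irf9 and Psmb8. Diet and lane overlap almost wholly.

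Within groups, the 34 genes moved up and down together from library to library. After group means were subtracted, the 561 pairs of these genes had a median Pearson's r of 0.80 over 19 libraries on the log2(CPM + 0.5) scale, 284 pairs were above 0.80 and 1 was below 0. The same genes against all other tested genes had a median r of 0.03. Ifit3 and Usp18 were the most alike at 0.98, followed by pairs such as Ifih1 with Ifit2 at 0.97 and Ifit1 with Ifit3 at 0.96. The genes that leaned towards type II interferon (Irf1, Gbp2, Gbp3, Psmb8, Psmb9 and Tap1) had a median r of 0.77 among themselves and of 0.73 with the other 28. Irf9 stood apart with a median r of 0.21 with the other genes, and its closest partner was Ifi35 at 0.62; with Stat2, its partner in the ISRE complex, it had 0.49. These values are a description, since the points share library, depth and tissue make-up.

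Over the 11 Ensure libraries the median r of the 561 pairs was 0.90 with 452 pairs above 0.80, and over the 8 HFD libraries it was 0.52 with 90 pairs above 0.80 and 85 below 0. The 3 libraries with the highest levels of these genes are all among the 11. This difference between diets was not tested.

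**Figure D4:**
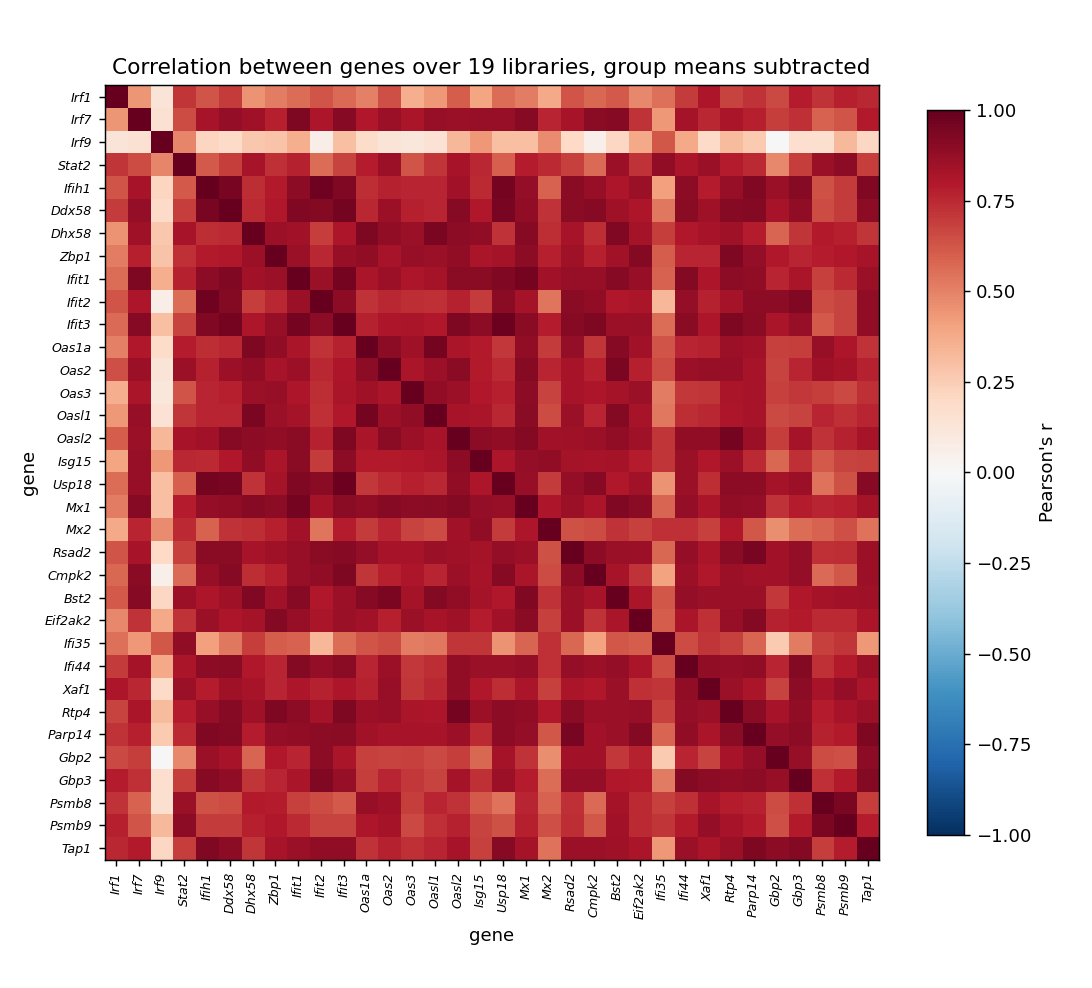
Colour shows Pearson's r between each pair of the 34 genes (both axes, ordered by role) over 19 libraries after subtraction of group means, on the log2(CPM + 0.5) scale. Most of the field is dark red, and the pale row and column belong to Irf9.

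None of the libraries rich in epithelial or tract RNA was among those with high levels of these genes. Ensure fasted 5, the library with the most tract RNA, also had the lowest adipocyte and macrophage marker sums of all libraries, 10277 and 523 CPM. Those of Ensure fasted 2 were 18679 and 971 CPM. The part of these sums in the levels of the 34 genes was not tested. Among the Ensure fasted libraries, numbers 2 and 5 were both below 7, 8 and 17 for 31 of the 34 genes, all but Irf9, Mx2 and Ifi35. Of all genes tested, 29% showed that order. The 34 genes move together, with a median r of 0.90 over the 11 Ensure libraries, so these are not 34 separate observations. Whether the order has to do with tract or epithelial RNA was not tested. The 6 simple epithelium markers summed to 345 and 583 CPM in Ensure fasted 2 and 5, and to 3.85, 4.81 and 25.9 CPM in Ensure fasted 7, 8 and 17. Low sums were not confined to libraries with high levels of the 34 genes. HFD fed 25, HFD fasted 23 and HFD fasted 28 had sums of 4.21, 5.94 and 5.97 CPM. Their median deviations were below 0, at -0.18, -0.08 and -0.31. The sums over groups were 4.21 to 287 CPM in HFD fed, 5.94 to 368 CPM in HFD fasted, 3.33 to 288 CPM in Ensure fed and 3.85 to 583 CPM in Ensure fasted libraries, with at most 1 of the 6 markers at 0 in a library. In whole tissue, fewer cells of a type and less RNA per cell cannot be told apart. With the 5 libraries rich in tract genes left out, 12 of the 34 genes were called higher in Ensure among fasted mice, beside 3.97% of all genes called, and with 3 further libraries rich in the epithelial gene Cdh16 left out 15 of 34, beside 10.5%. For Ensure fasting the counts were 3 and 0, beside 7.36% and 5.06% of all genes. Both omissions left Ensure fasted 7, 8 and 17, with median deviations of 0.42, 0.96 and 0.89. They removed Ensure fasted 2 and 5, at -0.15 and -0.21, and HFD fasted 24, the lowest of its group at -0.47. The larger omission left HFD fasted 23 and 28 alone in their group. Whether tract RNA or this choice of libraries changed the counts was not tested.

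**Figure D5:**
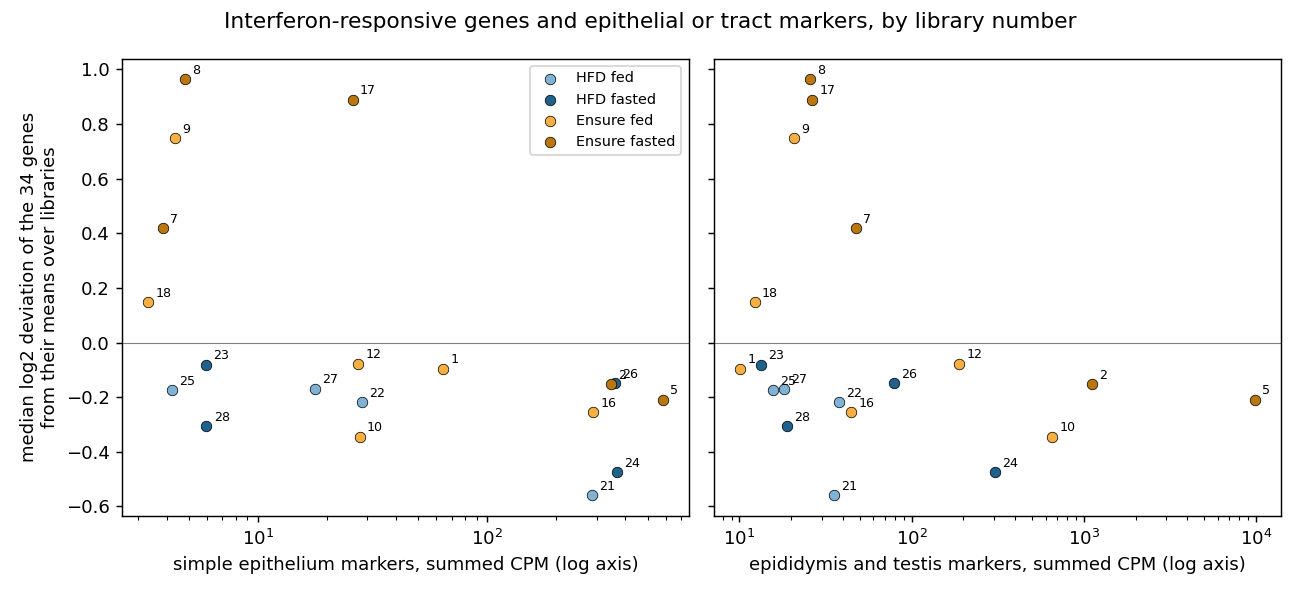
Each point is a library, labelled with its number and coloured by group; the vertical axis is the median deviation of the 34 genes from their means on the log2(CPM + 0.5) scale, and the horizontal axes are the summed CPM of simple epithelium markers (left) and of epididymis and testis markers (right) on log axes. The 5 libraries above 0 have marker sums of at most 25.9 CPM on the left and 47.3 CPM on the right.

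Immune cell markers also differed between the models. Of 7 markers of lipid-associated macrophages, Trem2, Gpnmb and Itgax were called lower in Ensure than in HFD fed fat, and Cd9, Gpnmb, Itgax and Ctsk among fasted mice. In both comparisons 6 of the 7 had log2 fold changes below 0. Without Lpl, which adipocytes also make, this list summed to 557 to 1820 CPM in HFD fed, 462 to 7060 CPM in HFD fasted, 119 to 227 CPM in Ensure fed and 140 to 911 CPM in Ensure fasted libraries, the reverse of the order of the diets for most of the 34 genes. With Lpl the sums were 11900 to 16300, 8810 to 17400, 18100 to 20900 and 7300 to 22000 CPM, so this reverse order of the sums held only without Lpl. Of 5 neutrophil markers, S100a9 was called higher in Ensure in both comparisons and Retnlg among fasted mice, and the list summed to 13.9 to 42.8, 9.56 to 56.9, 38.6 to 60.4 and 16.1 to 145 CPM in the same order of groups. General macrophage markers (0 of 7 called in any comparison) summed to 951 to 1610, 793 to 2800, 852 to 1440 and 523 to 2210 CPM. Markers of plasmacytoid dendritic cells, known for making type I interferon, summed to 4.20 to 7.33, 4.22 to 11.6, 2.05 to 7.24 and 2.57 to 15.9 CPM, with Siglech at 0.219 to 3.61 CPM. In Ensure fasted 5, the library with the highest sum, Ly6d alone was at 13.2 CPM. Of the 6 markers on that list 1 was at 0 in 7 libraries. Of the 7 T cell markers, 6 had log2 fold changes of Ensure against HFD below 0 in fed and in fasted mice, with medians of -0.32 and -0.78; the other, Cd4, which myeloid cells can also make, was called higher among fed mice. The list summed to 11.6 to 20.8, 15 to 24.8, 12 to 37.5 and 14.4 to 27.3 CPM, and Cd4 made up 21.2 of the 37.5 CPM in Ensure fed 16. Ensure fasted 8 had the highest median deviation of the 34 genes. Its general macrophage markers summed to 2214 CPM and its lipid-associated list without Lpl to 911 CPM. Both were the highest of the Ensure libraries. The same sums were 1434 and 235 CPM in Ensure fasted 17 and 1443 and 119 CPM in Ensure fed 9. HFD fasted 28, with a median deviation of -0.31, had the highest of all 19, 2799 and 7056 CPM. The part of these cells in the levels of the 34 genes was not tested.

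Upstream of these genes, the ligands were at or near the limit of detection. None of the 9 interferon ligand genes present in the count tables passed the filter. Ifnb1 had 5 counts over the 19 libraries, and the 4 alpha genes Ifna1, Ifna2, Ifna4 and Ifna5 had 0 counts in every library, where 3 counts, the limit that 0 allows, correspond to 0.124 to 0.210 CPM. Ifng had 54 counts in 18 libraries and at most 0.362 CPM. These limits cover counting error only. Reads that were not unique were not counted to genes, so the limits do not cover reads lost in that way. Whether reads of the alpha genes were among those lost was not tested. The receptors were well measured and none was called: Ifnar1 was at 100 ± 14.9, 104 ± 25.3, 104 ± 4.02 and 94.7 ± 17.7 CPM (SD; n = 4, 4, 6 and 5) in fed and fasted HFD fat and in fed and fasted Ensure fat, and Ifnar2 at 117 ± 14.6, 124 ± 27.0, 113 ± 12.4 and 124 ± 36.3 CPM. Ifngr1 was at 285 ± 34.8, 211 ± 14.9, 233 ± 11.4 and 283 ± 76.9 CPM and Ifngr2 at 56.4 ± 15.0, 61.0 ± 12.3, 63.1 ± 4.59 and 55.8 ± 11.4 CPM in the same order.

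Of 98 other genes of interferon signalling 93 were present and 84 tested, and 8 of these were called higher and 4 lower on fasting in Ensure fat, beside 10.6% and 9.77% of all genes, so that calls were no more frequent on this list than among all genes. The 6 with the smallest p comprise inhibitors and targets. Among the inhibitors, Pias1, which restrains STAT proteins, rose with a log2 fold change of 0.34 ± 0.08 and Adar, which edits double-stranded RNA, with 0.40 ± 0.12, while Ptpn11, a phosphatase, had -0.51 ± 0.13. Of the 26 further type I targets, Isg20, an exonuclease, rose with 1.62 ± 0.41 and Oas1b with 0.64 ± 0.19. Isg20 was at 128 CPM in Ensure fasted 5 and at 20.3 to 24.5 CPM in the other 4 fasted libraries, beside 11.1 to 21.1 CPM in the fed ones. Of the 22 further type II targets 0 were called higher, and Cd274, the checkpoint ligand also known as PD-L1, fell, with -0.87 ± 0.17.

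The further type I targets leaned the same way as the 34 genes. Their log2 fold changes were above 0 in 24 of 26 for Ensure fasting, with a median of 0.30, and in 22 of 26 for Ensure against HFD among fasted mice, with a median of 0.33. For the further type II targets the counts were 14 of 22, with a median of 0.15, and 11 of 22, with a median of 0.01. Over all genes the medians were 0.11 and 0.02, and 9694 and 8374 of the 16015 genes were above 0.

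Between the diets, Ifi27l2a, an interferon-induced mitochondrial protein, was lower in Ensure fed than in HFD fed fat, with a log2 fold change of -1.45 ± 0.32 (edgeR, adjusted p = 0.0163), the only gene of the 84 called, beside 4.26% of all genes. It was at 411 to 862 CPM in HFD fed and 156 to 277 CPM in Ensure fed libraries, which do not overlap, opposite in direction to Ifit1 and Oas3. Among fasted mice 2 of the 84 were called, beside 1.63% of all genes higher and 1.19% lower. Ly6e, a membrane protein that affects viral entry, was higher in Ensure (1.10 ± 0.22; edgeR, adjusted p = 0.0155) and Cd274 lower (-0.89 ± 0.18, adjusted p = 0.0155). The highest Ly6e level was 1144 CPM in Ensure fasted 5, the library with the most tract RNA. Its lowest was 219 CPM in HFD fasted 28, beside a median of 455 CPM over the 19 libraries. Cd274 stood at 33.8 to 57.8 CPM in fasted HFD libraries, and at 16.0 to 31.6 CPM in fasted Ensure libraries, and at 41 to 49.6 CPM in Ensure fed ones. Of the 84, 0 were called for HFD fasting and 0 for the difference between the responses by edgeR, with 6 and 5 at an unadjusted p under 0.05.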

How the data were processed

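Counts of reads per gene symbol, not normalized, were used as deposited by the authors for 19 libraries of poly-adenylated RNA made with a TruSeq kit, per the labels' protocols. The submitters' processing notes name bcl2fastq 1.8.4, TopHat2 2.1 and also HTSeq 0.6.1, with build mm9; no source used here gives the annotation or the strand setting. Without a known strand setting, reads of overlapping genes cannot be told apart. HTSeq's summary lines stayed out of library sizes: 20.67 to 27.7% of reads were not unique, 13.01 to 17.32% in no gene and 0.70 to 0.89% ambiguous.

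Groups were taken from the labels. Calls rest on edgeR's quasi-likelihood test (edgeR 4.0.16, R 4.3.3) in 1 fit of 19 libraries and 4 groups, with TMM scaling, filterByExpr at a minimum count of 10 and Benjamini-Hochberg adjustment over 16015 genes; calls are at an adjusted p under 0.05. Standard errors were derived from each fold change and its F statistic. DESeq2 1.42.0 and limma 3.58.1 (voom with sample weights) were alternatives, with other scalings, filters, lane, and libraries left out. The procedure was tested on simulated data. Deviations and correlations used log2(CPM + 0.5). Promoter windows and sequences are RefSeq's for GRCm38.p6, a later build than the counts.

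The 34 genes, the pathway and marker lists and the tests were chosen with earlier results of these data known. All 34 are accounted for. Values per library are given for those called in a comparison, for the 2 with the smallest p in each, and for Irf7, Stat2, Isg15, Ifit1, Oasl2, Gbp2 and Psmb8; other pathway genes are named where called, up to 6 per comparison by smallest p, with the receptors, Ifnb1 and Ifng. A further gene of that rule is not reported here.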

Additional observations from a re-analysis of the deposited data

Results flagged for a closer look

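A library far from the others of its group was found in 22 of 136 combinations of gene and group (Dixon's test at 95%), which chance gives in about 1 of 20 groups. The genes move together, so these combinations are not independent. Ensure fed 9 stood above the others of its 6 libraries by this test for 16 genes: Ddx58 at 83.2 CPM, Dhx58 at 24.6 CPM, Zbp1 at 24.6 CPM, Ifit1 at 35.2 CPM, Ifit2 at 42.7 CPM, Ifit3 at 88.8 CPM, Oas3 at 13 CPM, Oasl2 at 63.7 CPM, Isg15 at 20.7 CPM, Usp18 at 16.4 CPM, Mx1 at 16.5 CPM, Mx2 at 6.72 CPM, Eif2ak2 at 80.2 CPM, Xaf1 at 26.1 CPM, Rtp4 at 39.7 CPM and Gbp3 at 80.7 CPM.

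By the same test HFD fed 21 stood below the others of its 4 libraries for Ifit3 at 13.7 CPM, Oasl2 at 21.1 CPM and Usp18 at 4.35 CPM. HFD fasted 24 did so in its group for Irf1 at 68.2 CPM and Oasl2 at 27.9 CPM, and HFD fasted 28 stood above the others for Oas2 at 28.4 CPM.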

How the results depend on the processing

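The 7 called fold changes kept their direction under every alternative that was run. For HFD fasting, 0 of the 34 genes were called under every alternative. For the difference between the fasting responses, limma voom called 1 and the other alternatives 0. For Ensure fasting, where the count was 2, it was 6 with library size alone, 1 without a filter, 0 with lane as a term, 6 with DESeq2 (beside 27.4% of all genes), 25 with limma voom (beside 35.2% of all genes), 1 with the compared groups alone, 0 without the 8 libraries rich in tract or epithelial genes, and 0 to 10 without each library in turn. For Ensure against HFD among fed mice, where it was 0, it was 4 with DESeq2 (beside 9.68%), 8 with limma voom (beside 34% of all genes), 5 with the compared groups alone (beside 19.8%), 2 without the 5 libraries rich in tract genes, and 0 to 2 without each library in turn. Among fasted mice, where it was 5, it was 3 without a filter, 0 with lane as a term, 15 with DESeq2 (beside 8.09%), 25 with limma voom (beside 21.3% of all genes), 0 with the compared groups alone, 12 and 15 without the 5 and the 8 libraries, and 0 to 12 without each library in turn. The cause of these changes was not tested. TMM with library sizes over all genes, an alternative chosen after seeing the data, left each count as it was.

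Of the 7 calls, the log2 fold changes under the 11 alternatives without single omissions ran from 0.18 to 0.50 for Irf9, 0.73 to 1.06 for Oasl2, 1.99 to 2.94 for Irf7, 1.77 to 2.33 for Ifit1, 1.87 to 2.30 for Oas3, 0.83 to 1.39 for Cmpk2 and 1.70 to 2.51 for Ifi44. No paired analysis was possible because the groups share no replicate numbers. Small groups, 1 lane that holds all 8 HFD libraries and only 1 Ensure library and the low counts of the ligands limit what these data can show.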
